A study of Mus musculus with 2 samples.

Results

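Complement and coagulation factors are plasma proteins of innate immunity and blood clotting. The genes described here were chosen by name, as 40 genes for liver-made proteins of complement, the lectin pathway, clotting, fibrinolysis and anticoagulation, with serpins and C1q left out. Of these 40 genes, 37 were read by probe sets annotated with that gene symbol alone, 54 probe sets in all, out of 18194 genes and 34958 such probe sets on the array. The other 3 genes, C3, C4b and Cpb2, were not analysed here. Diosgenin, the agent tested, is a steroidal sapogenin of plants. The treated animals were ICR mice, an outbred stock, which ate CRF-1 basal diet supplemented with diosgenin at 500 ppm over 4 weeks, beginning at 9 weeks of age. The control animals were ICR mice of the same age that ate CRF-1 alone. Livers were taken at 13 weeks of age, and RNA pooled from 3 mice was measured on 1 Affymetrix array for each diet. There was therefore no replicate array, and the spread between mice cannot be had. Every difference below is one between 2 pools, described without a test, and higher or lower always refers to the signal under diosgenin, set against that under the control diet. Cages held 3 mice, and if each diet occupied a single cage, which the labels leave unsaid, diet and cage cannot be told apart.

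In complement, target recognition by the classical or lectin pathway, or spontaneous turnover in the alternative pathway, leads to cleavage of C3 and then of C5, and the terminal components assemble into a pore in the target membrane. In coagulation, tissue factor with factor VII starts a chain of serine proteases that ends in thrombin, which turns fibrinogen into fibrin, while the contact system feeds the same chain through factor XI and plasmin later dissolves the clot. Hepatocytes secrete most of these proteins, and several clotting proteases and their inhibitors need a vitamin K dependent modification in the endoplasmic reticulum before they can bind membranes. Factor VIII and tissue factor pathway inhibitor come largely from endothelial cells, and properdin comes largely from myeloid cells.

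The complement and coagulation genes were close to equal on both arrays. Signals under a floor of 10.7 were raised to it before ratios were taken, and signals of both arrays averaged at least 28.4, the 60th percentile of all probe sets, for 36 of the 37 genes. Of these 36 genes, 21 had a higher and 15 a lower signal on the diosgenin array. Over all 9732 genes above this filter 49.0% were higher and 51.0% were lower. The median log2 ratio was 0.0069 for the 36 genes, against -0.0053 over all 9732. None was higher by 1.5-fold or more, where 2.84% of all genes were, and none was lower by 1.5-fold or more, where 3.61% of all genes were. By a smaller difference, 2 of the 36 were at least 25% higher, where 10.6% of all genes were, and 0 were at least 20% lower, where 11.8% of all genes were.

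Array ratios scatter less at high signals, so the top signal quartile, 2433 genes with mean signals of at least 376.7, is the closer yardstick for the 32 genes of the complement and coagulation set that lay in it. In that quartile 1.11% of genes were higher by 1.5-fold or more and 1.15% lower by as much, so that 0 of 32 in either direction is near the background. Of the 32 genes, 26 (81.3%) were within 1.1-fold of equality, against 59.5% of the whole quartile, and their log2 ratios had a standard deviation of 0.15 against 0.23 for the whole quartile. These 32 genes were not matched to the quartile in signal, and 7 of them were among the 100 genes with the highest mean signals. The part of signal in these gaps was not tested. The 2 genes at least 25% higher, out of these 32, compare with 4.89% of the quartile, and the 0 at least 20% lower with 5.47%. The error scale that the arrays offer is the disagreement between probe sets of a gene, a standard deviation of 0.28 in log2 ratio over 4079 genes, which includes no spread between mice. Ratios of 31 of the 36 genes were smaller than this, and the other 5 were F7, Hc, Pros1 and C2 on the higher side and F8 on the lower side. Over all genes 27.6% were further from 0 than this scale, and in the top signal quartile 14.1% were, against 3 of the 32 genes of the set there. The probe sets of the set itself disagreed less, with a standard deviation of 0.14. Further from 0 than that were 10 of the 36 genes, where 55.5% of all genes were. Among the 32 genes 6 were, where 40.6% of the top quartile were.

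**Figure D1:**
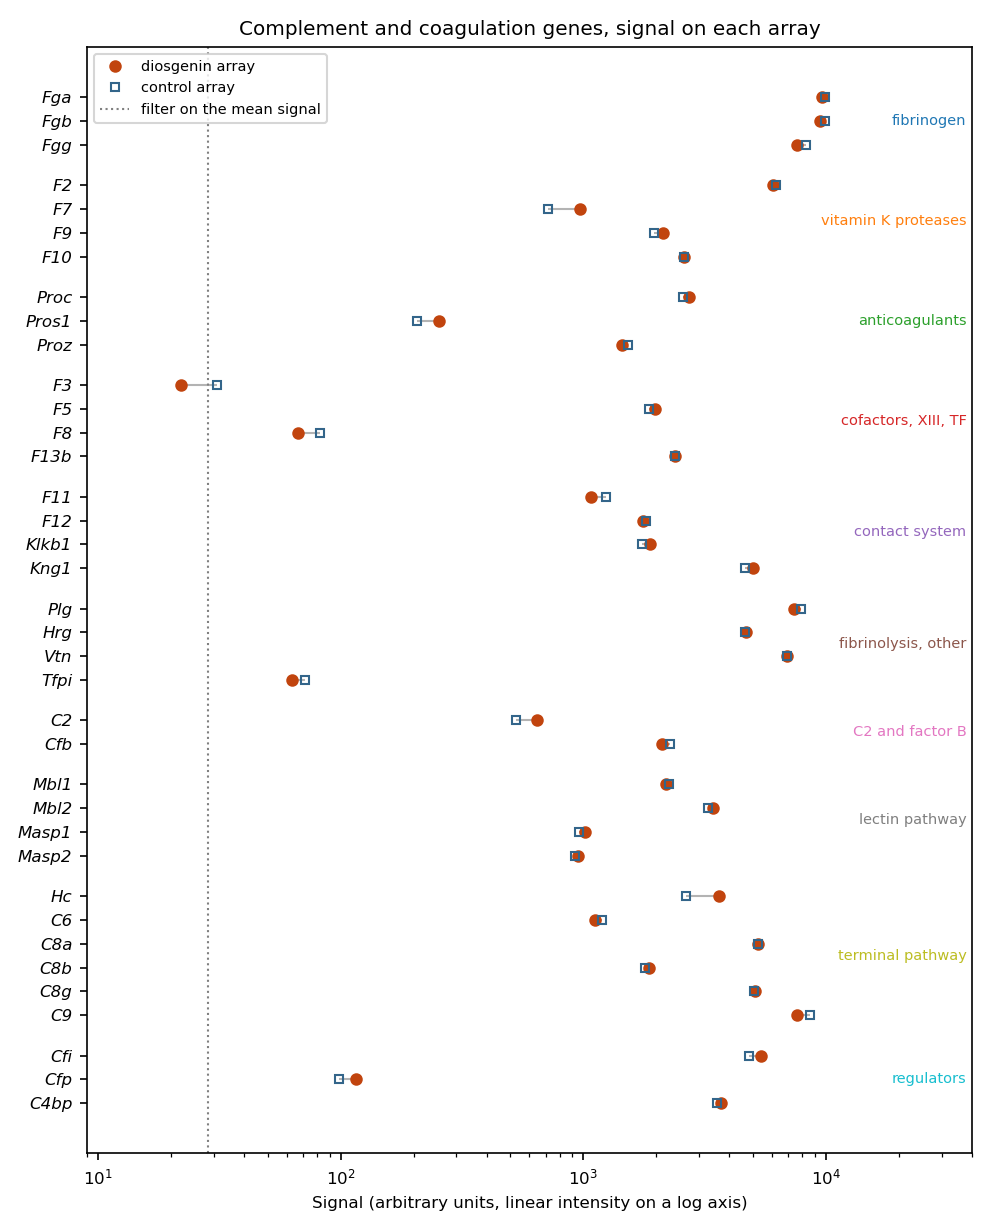
Signal of each of the 37 genes on the diosgenin array (filled circles) and on the control array (open squares), in arbitrary units on a log axis, grouped by role, with 1 array per diet and no error bars. Most pairs of points touch, Hc and F7 lie visibly higher on the diosgenin array, and F3 (22.0 on the diosgenin array, 30.8 on the control array) is the only gene whose mean lies left of the dotted filter line. Heights of different genes are read by different probes and are not comparable.

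The promoter windows of 5 genes are shown, because F7 and Hc had the 2 highest ratios of the set and the 3 fibrinogen chain genes are adjacent in the genome and encode 1 protein. Each window runs from 250 bases before to 50 bases after the gene start in the RefSeq annotation of the mouse assembly GRCm38.p6 and is written 5' to 3' on the strand of the gene. Capitals mark matches, on either strand, to 5 short words: GTTAAT (part of the palindromic site of the hepatocyte factor HNF1), CAAAGTC (a core of HNF4 sites), CTGGGAA (the core of the type 2 interleukin-6 response element), TATAAA (the letters of the TATA box) and AAGGTCA (a core of nuclear receptor sites, added after the F7 window had been read). Matches were taken at any position in the window, so a TATAAA match need not be a TATA box. No overlap between matches of different words occurred in these windows.
F7 (factor VII), chr8:13025784-13026083, plus strand: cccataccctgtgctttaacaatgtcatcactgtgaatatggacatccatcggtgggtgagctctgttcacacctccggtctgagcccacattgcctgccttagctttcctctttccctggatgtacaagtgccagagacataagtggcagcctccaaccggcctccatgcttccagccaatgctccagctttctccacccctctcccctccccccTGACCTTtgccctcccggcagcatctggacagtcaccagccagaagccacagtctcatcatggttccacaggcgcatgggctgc
Hc (component C5), chr2:35061363-35061662, minus strand: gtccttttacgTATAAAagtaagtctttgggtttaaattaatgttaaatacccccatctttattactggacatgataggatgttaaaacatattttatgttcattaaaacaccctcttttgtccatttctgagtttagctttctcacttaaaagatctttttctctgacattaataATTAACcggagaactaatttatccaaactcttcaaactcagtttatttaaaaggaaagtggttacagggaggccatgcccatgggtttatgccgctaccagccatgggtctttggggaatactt
Fga (fibrinogen alpha chain), chr3:83025903-83026202, plus strand: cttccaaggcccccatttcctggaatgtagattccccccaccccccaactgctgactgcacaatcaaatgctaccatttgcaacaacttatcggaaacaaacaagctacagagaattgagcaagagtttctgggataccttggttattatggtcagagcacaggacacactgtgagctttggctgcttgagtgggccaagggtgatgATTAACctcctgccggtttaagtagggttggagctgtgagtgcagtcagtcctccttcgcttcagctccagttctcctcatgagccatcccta
Fgb (fibrinogen beta chain), chr3:83049814-83050113, minus strand: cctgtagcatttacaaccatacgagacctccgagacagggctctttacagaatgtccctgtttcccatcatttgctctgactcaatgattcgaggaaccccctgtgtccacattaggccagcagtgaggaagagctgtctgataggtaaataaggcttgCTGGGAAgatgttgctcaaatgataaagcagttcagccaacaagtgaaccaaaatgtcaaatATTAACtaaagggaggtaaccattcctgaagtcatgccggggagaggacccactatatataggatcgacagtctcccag
Fgg (fibrinogen gamma chain), chr3:83007474-83007773, plus strand: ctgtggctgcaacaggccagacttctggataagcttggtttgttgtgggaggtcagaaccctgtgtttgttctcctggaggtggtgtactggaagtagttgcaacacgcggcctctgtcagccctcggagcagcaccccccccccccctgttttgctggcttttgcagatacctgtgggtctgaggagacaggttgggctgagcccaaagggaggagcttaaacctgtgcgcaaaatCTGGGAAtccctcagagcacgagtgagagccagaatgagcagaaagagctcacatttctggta

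Among 32 of the 40 genes whose promoters the RefSeq table holds, GTTAAT occurred in 11 (34.4%), against 7.20% of 27025 promoters of the same length. CTGGGAA occurred in 7 of the 32 (21.9%) against 11.1% of all promoters, and AAGGTCA in 4 (12.5%) against 4.66%. AAGGTCA was added after the F7 window had been read, and F7 is among these 4. Its share is therefore not independent of that choice. TATAAA occurred in 7 (21.9%) against 14.2%, and CAAAGTC in 1 (3.13%) against 4.36%. Of the 5 windows shown, GTTAAT was found in Hc, Fga and Fgb, CTGGGAA in Fgb and Fgg, TATAAA in Hc and AAGGTCA in F7. The TATAAA of Hc lies near the 5' end of its window, far from the gene start, and is not read as its TATA box. A match is a description of letters in the window, and binding was not measured.

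Fibrinogen, the protein that thrombin cleaves to form the clot, is made of 3 chains, encoded by Fga, Fgb and Fgg. The signal of Fga was 9611 on the diosgenin array and 9919 on the control array, a log2 ratio of -0.05. Fgb had 9419 on the diosgenin array and 9915 on the control array (-0.07), and Fgg had 7635 on the diosgenin array and 8306 on the control array (-0.12). All 3 ratios were negative and within 1.1-fold, but quantile normalization turned Fga to 0.04 and Fgb to 0.01 and left Fgg at -0.03. Under the other scalings all 3 stayed negative. Centring on a running median over signal gave Fga -0.03, Fgb -0.06 and Fgg -0.11. Centring on the median of all genes gave -0.04, -0.07 and -0.12. Genes of very high signal were more often lower than higher on the diosgenin array. Of the 100 genes with the highest mean signals, 63 of the 93 outside the set were lower, with a median of -0.04, as were all 7 of the set, with a median of -0.07. After quantile normalization these counts were 44 of 93 and 4 of 7. Centring on the running median left them at 54 of 93 and 6 of 7, and centring on the median of all genes at 61 of 93 and 6 of 7. Fibrinogen is also an acute phase protein, and the 15 acute phase genes above the filter had a median log2 ratio of -0.10, with 5 on the higher and 10 on the lower side. Over all genes above the filter 51.0% were lower. The acute phase genes were not read under the other scalings, and the part of high signal in their ratios was not tested.

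The vitamin K dependent proteases are F2 (prothrombin), F7, F9 and F10, which act in sequence to produce thrombin. F7, the protease that pairs with tissue factor to start clotting, had a signal of 971.2 on the diosgenin array and 712.1 on the control array, 1.36-fold higher and a log2 ratio of 0.45. In the top signal quartile 5.26% had a ratio at least this far from 0 in either direction. F7 was read by 1 probe set, so no second reading on the same arrays bears on this value. Its neighbours in the genome lay nearer to equality. F10, which lies next to F7 and encodes the protease that cleaves prothrombin, had 2596.5 on the diosgenin array and 2596.1 on the control array, and Proz, which follows F10, had 1446 on the diosgenin array and 1521 on the control array. The other F10 probe sets above the filter gave log2 ratios of 0.0026 and 0.09. F9, the protease missing in haemophilia B, had 2138 on the diosgenin array and 1954 on the control array (0.13). F2 had 6049 on the diosgenin array and 6248 on the control array (-0.05).

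Proc, Pros1 and Proz encode protein C, its cofactor protein S and protein Z, which restrain clotting and also need vitamin K. Pros1 had a signal of 255.4 on the diosgenin array and 205.4 on the control array, 1.24-fold higher and a log2 ratio of 0.31. It lay in the third signal quartile, where 16.2% of genes had a ratio at least this far from 0. Proc had 2731 on the diosgenin array and 2577 on the control array, a log2 ratio of 0.08. Proz had a log2 ratio of -0.07, and its second probe set gave 0.09. Of the 10 genes fixed for the vitamin K cycle and the secretion of clotting factors, all above the filter, 5 were on each side of equality, with a median of -0.04 and none past 1.5-fold. The carboxylase Ggcx had 260.9 on the diosgenin array and 275.5 on the control array, and the vitamin K reductase Vkorc1 had 3314 on the diosgenin array and 3302 on the control array. Lman1 and Mcfd2, which together carry factors V and VIII out of the endoplasmic reticulum, had log2 ratios of -0.17 and -0.18. The processing protease Furin, with 512.8 on the diosgenin array and 406.0 on the control array, was at 0.34, the highest of the 10.

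**Figure D2:**
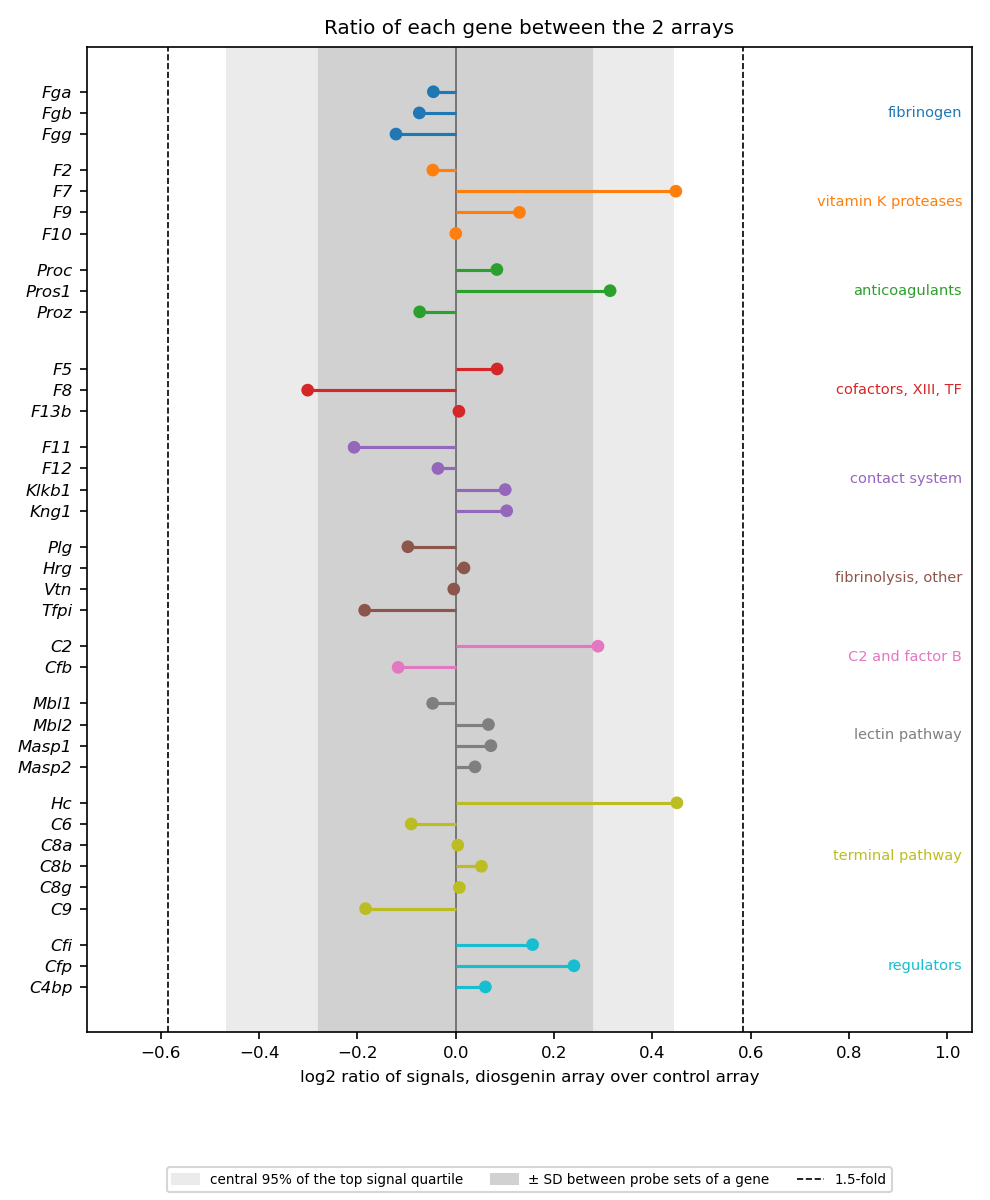
The log2 ratio of diosgenin over control signal for the 36 genes above the filter, grouped by role. The dark band is the standard deviation between probe sets of a gene (0.28 to either side), the light band holds the central 95% of the top signal quartile (-0.47 to 0.44), and dashed lines mark 1.5-fold. Hc and F7 reach the upper edge of the light band, and no gene reaches a dashed line.

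F5 and F8 encode the cofactors of the proteases, F13b the carrier subunit of the factor that cross-links fibrin, and F3 tissue factor. F8, the factor missing in haemophilia A, had a signal of 66.8 on the diosgenin array and 82.3 on the control array, 1.23-fold lower, with the lowest log2 ratio among the 36 genes (-0.30). At such signals, in the second signal quartile, 27.3% of genes had a ratio at least this far from 0. F5 had 1969 on the diosgenin array and 1857 on the control array, a log2 ratio of 0.08 that its second probe set put at 0.05. F13b had 2397 on the diosgenin array and 2387 on the control array. F3 had 22.0 on the diosgenin array and 30.8 on the control array, below the filter, and its ratio is not read.

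The contact system consists of F11, F12, Klkb1 (plasma prekallikrein) and Kng1 (kininogen, the source of bradykinin). F11 had a signal of 1075 on the diosgenin array and 1241 on the control array, 1.15-fold lower and a log2 ratio of -0.21. Klkb1, the adjacent gene and a paralogue of F11, had 1875 on the diosgenin array and 1749 on the control array (0.10), so both neighbours had ratios of opposite sign, each smaller than the spread between probe sets. Kng1 had 4986 on the diosgenin array and 4641 on the control array (0.10), and its second probe set gave 0.16. F12 had 1761 on the diosgenin array and 1806 on the control array (-0.04).

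Plg (plasminogen), which is converted to the enzyme that dissolves fibrin, had a signal of 7407 on the diosgenin array and 7924 on the control array, a log2 ratio of -0.10. Hrg, a plasma glycoprotein that binds plasminogen and heparin, had 4676 on the diosgenin array and 4622 on the control array (0.02). Vtn (vitronectin), an adhesive protein that also holds back the terminal complement complex, had 6915 on the diosgenin array and 6935 on the control array, and its 2 probe sets gave log2 ratios of -0.0040 and 0.00021. These genes thus lay within 1.1-fold of equality. Tfpi, the inhibitor of the tissue factor complex, had 62.7 on the diosgenin array and 71.3 on the control array, a log2 ratio of -0.19, and 3 of its 4 probe sets were between -0.19 and -0.25 while the remaining one was at 0.10. In the lowest signal quartile, where Tfpi lay, 60.4% of genes had a ratio at least this far from 0.

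C2 and Cfb are homologous proteases, adjacent in the genome, that form the C3-cleaving enzymes of the classical and lectin pathways and of the alternative pathway. C2 had a signal of 647.2 on the diosgenin array and 529.6 on the control array, 1.22-fold higher and a log2 ratio of 0.29. Its other 2 probe sets gave 0.20 and 0.32, so all 3 were positive. Only those other 2 end in _x_at, a suffix for probe sets that can bind related transcripts. In the top signal quartile 12.8% had a ratio at least as far from 0 as that of C2. Cfb had 2109 on the diosgenin array and 2287 on the control array, a log2 ratio of -0.12, and was thus on the opposite side from its neighbour. A probe set annotated with both C4a and C4b, and so outside the counts, had 4365 on the diosgenin array and 4278 on the control array, a log2 ratio of 0.03.

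The lectin pathway genes lay close to equality. Mbl1 and Mbl2 encode mannose-binding lectins that recognise microbial sugars, and Masp1 and Masp2 encode the proteases they carry. Mbl1 had a signal of 2185 on the diosgenin array and 2258 on the control array (-0.05), and Mbl2 had 3434 on the diosgenin array and 3279 on the control array (0.07). Masp1 had 1012 on the diosgenin array and 963.5 on the control array (0.07), and Masp2 had 952.4 on the diosgenin array and 926.8 on the control array (0.04). The second, dimmer Masp2 probe set gave 0.16. All 4 ratios of the brightest probe sets lay between -0.05 and 0.07. The dimmer Masp1 probe sets disagreed with each other, at 0.30, -0.22 and 0.25, and Masp1 gives rise to several transcripts, so which transcript each of them reads bears on these values and was not tested.

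**Figure D3:**
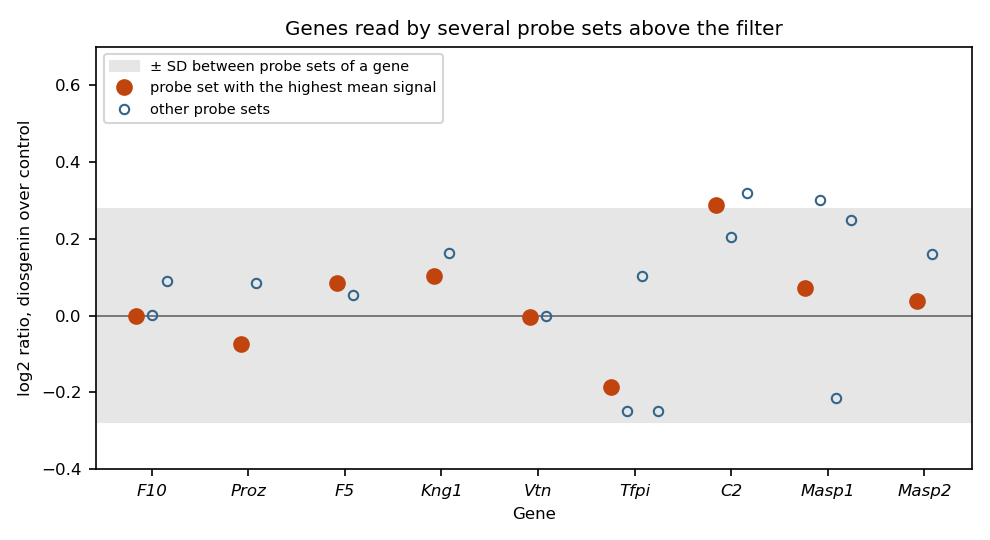
The log2 ratio of each of the 24 probe sets for the 9 genes that had several above the filter. Filled circles are the probe set with the highest mean signal, open circles the others, and the grey band is the standard deviation between probe sets over all genes (0.28). The 3 probe sets of C2 are all positive, those of Masp1 span -0.22 to 0.30, and the 9 genes had a standard deviation between probe sets of 0.14.

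In the terminal pathway, Hc (haemolytic complement, the mouse gene for C5) had a signal of 3624 on the diosgenin array and 2653 on the control array, 1.37-fold higher. Its log2 ratio of 0.45 was the highest of the 36 genes, and 5.18% of the top signal quartile had a ratio at least this far from 0. C5 is cleaved into the chemoattractant C5a and into C5b, on which the membrane pore is built. Hc was read by 1 probe set. The components that join C5b lay nearer to equality. C6 had 1119 on the diosgenin array and 1191 on the control array (-0.09). C8a, C8b and C8g encode the 3 chains of C8 and had log2 ratios of 0.0042, 0.05 and 0.0074, with C8a at 5270 on the diosgenin array and 5255 on the control array. C9, which forms the wall of the pore, had 7583 on the diosgenin array and 8611 on the control array, 1.14-fold lower and a log2 ratio of -0.18. In the top signal quartile 28.1% had a ratio at least as far from 0 as that of C9, and quantile normalization moved C9 to -0.10. The 2 ends of the pathway, Hc and C9, were on opposite sides of equality, but the ratio of C9 was smaller than the spread between probe sets.

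The 3 complement regulators were all on the higher side, by small amounts. Cfi, the protease that inactivates C3b and C4b, had a signal of 5395 on the diosgenin array and 4841 on the control array (0.16). C4bp, a cofactor of that protease, had 3710 on the diosgenin array and 3558 on the control array (0.06). Cfp (properdin), which stabilises the alternative pathway enzyme and is the only positive regulator of the 3, had 116.1 on the diosgenin array and 98.3 on the control array, a log2 ratio of 0.24. In its signal quartile 36.9% of genes had a ratio at least this far from 0. A second, dimmer Cfp probe set had 32.7 on the diosgenin array and 19.8 on the control array, with a mean under the filter.

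**Figure D4:**
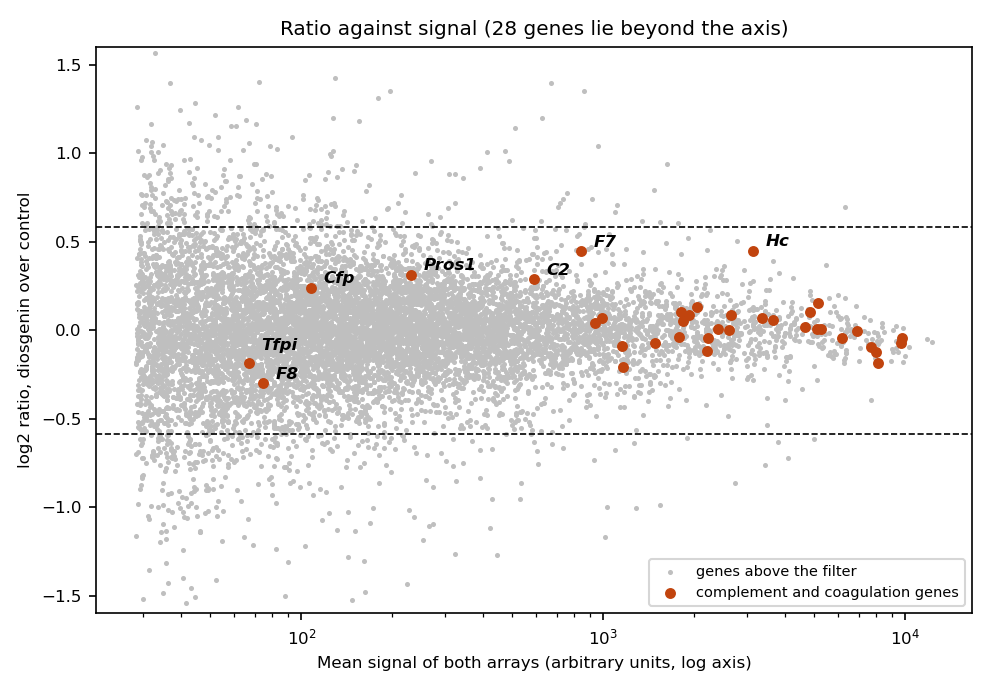
The log2 ratio of diosgenin over control against the mean signal of both arrays (log axis) for 9732 genes (grey) and for the 36 complement and coagulation genes (red), with dashed lines at 1.5-fold. The spread narrows with signal, F7 and Hc lie near the upper edge of the grey points at their signal, and F8, Tfpi and Cfp lie well inside the grey points at theirs. Beyond the axis lie 28 other genes with larger ratios.

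Markers of liver cell types were read beside the genes that are not mainly hepatocyte products. Of 10 endothelial markers, all above the filter, 9 were lower and 1 was higher, and the median log2 ratio was -0.29, with a summed signal of 1579 on the diosgenin array and 2086 on the control array, and F8 (-0.30) and Tfpi (-0.19) were lower with them. The endothelial lectin Clec4g was the furthest at 463.7 on the diosgenin array and 745.2 on the control array, 1.61-fold lower. Its second probe set, with a mean under the filter and under the floor on the control array, lay in the opposite direction, at least 1.37-fold higher. Of 9 macrophage markers, 6 were higher and 3 were lower, and the median was 0.09, with a summed signal of 2197 on the diosgenin array and 2014 on the control array, and Cfp (0.24) was higher with them. The 1 macrophage marker past 1.5-fold was the scavenger receptor Marco, dim at 45.1 on the diosgenin array and 13.3 on the control array, 3.39-fold higher, with a second probe set under the filter at 0.59. The C1q genes C1qa, C1qb and C1qc, macrophage products outside the set, had log2 ratios of 0.24, 0.22 and 0.24. Of 7 neutrophil and monocyte markers, 6 had a probe set annotated with that symbol alone, and 0 were above the filter. In bulk tissue fewer cells of a type and less RNA per cell cannot be told apart, and the part of these markers in the ratios of F8, Tfpi and Cfp was not tested. Ratios at least as far from 0 as those of F8, Tfpi and Cfp were held by 27.3%, 60.4% and 36.9% of genes in their signal quartiles. Of 9 hepatocyte markers above the filter, 8 were lower and 1 was higher, and the median was -0.07, with a summed signal of 73189 on the diosgenin array and 77217 on the control array. Most of these markers were among the 100 genes with the highest mean signals. Of the 93 such genes outside the set, 63 were lower, and 44 were after quantile normalization. The hepatocyte markers were not read under the other scalings. The defining products of hepatocytes were thus read at high signal on both arrays, as the tissue label has it.

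**Figure D5:**
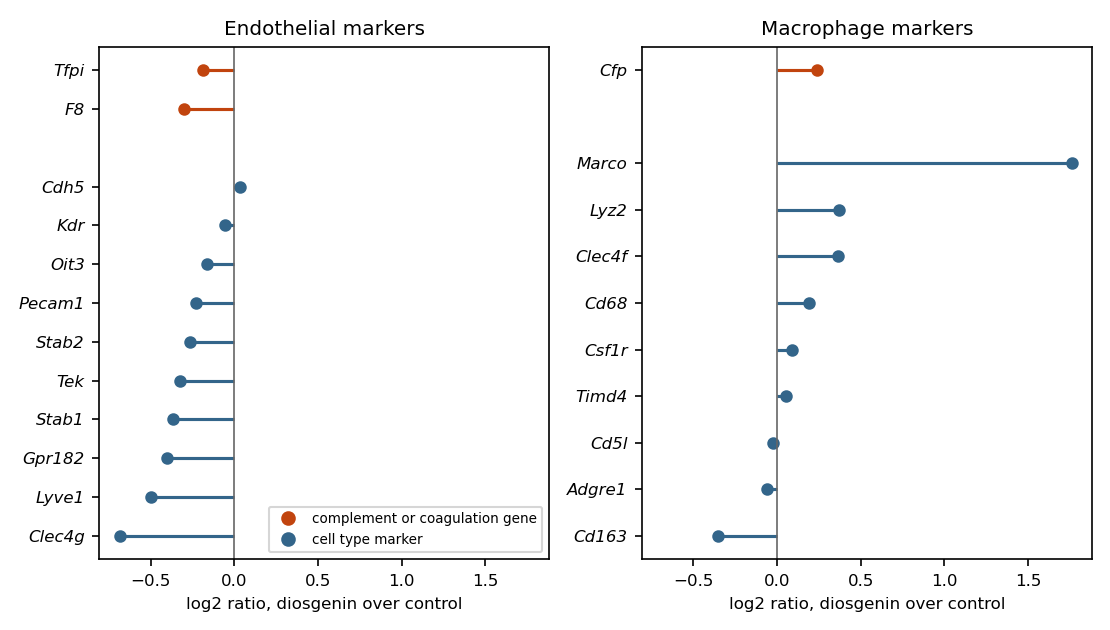
The log2 ratio of diosgenin over control for F8 and Tfpi above 10 endothelial markers (left) and for Cfp above 9 macrophage markers (right). Red points are complement or coagulation genes and blue points are markers. Of the endothelial markers 9 lie left of 0, as do F8 and Tfpi, and 6 of the macrophage markers lie right of 0, as does Cfp.

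The 16 further complement genes above the filter had a median of 0.04, 9 of them higher and 7 of them lower, and none was past 1.5-fold by its brightest probe set. The furthest were Cd55, a dim membrane inhibitor (-0.47), and the factor H related gene Cfhr2 (0.43), with 1223 on the diosgenin array and 908.1 on the control array. The second Cfhr2 probe set, at 72.6 on the diosgenin array and 24.0 on the control array, was 3.03-fold higher, so both were on the higher side and differed in size. The 5 serpins of clotting and complement above the filter had a median of 0.02 and ranged from -0.01 for Serpinc1, which encodes antithrombin, to 0.16 for Serpinf2, which encodes the plasmin inhibitor. Of 9 further clotting and fibrinolysis genes 4 were higher and 5 lower, and S100a10, part of a cell surface plasminogen receptor, was the only one past 1.5-fold, with 989.4 on the diosgenin array and 1540 on the control array (1.56-fold lower). Its probe set ends in _x_at, S100a10 belongs to a multigene family, and the value is uncertain, with a median of -0.46 for its other probe sets.

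Transcription factors that act on these genes in liver, and interleukin-6 signalling, were measured by 16 genes above the filter, 10 of them higher and 6 of them lower, and their median was 0.05. Hnf4a had 2311 on the diosgenin array and 2247 on the control array, and Cebpa had 2060 on the diosgenin array and 2031 on the control array. Both were within 1.1-fold by the probe set of highest mean signal. The other Hnf4a probe sets had a median log2 ratio of 0.20, and Cebpa was read by 1 probe set. Those 1.5-fold higher or more were Foxa1 with 271.0 on the diosgenin array and 170.5 on the control array, Cebpd with 97.9 on the diosgenin array and 64.1 on the control array, and Socs3, an inhibitor of cytokine signalling, with 93.3 on the diosgenin array and 48.6 on the control array, and 0 of the 16 were as far on the lower side. Over all genes above the filter 2.84% were higher and 3.61% were lower by 1.5-fold or more. Foxa1 was read by 1 probe set. The second Cebpd probe set lay under the floor on both arrays and so gave no ratio, and the other Socs3 probe sets had a median log2 ratio of 0.58. Among acute phase genes Saa3 was 2.03-fold higher, with 111.0 on the diosgenin array and 54.7 on the control array, and Orm2 was 2.35-fold lower, with 49.2 on the diosgenin array and 115.7 on the control array. The more strongly read Saa1, at 1244 on the diosgenin array and 1582 on the control array, was at -0.35.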

How the data were processed

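Liver RNA, pooled from 3 mice per diet, was measured on 2 arrays, 1 per diet, of 45101 probe sets. The values deposited by the authors were linear signal intensities. The submitters' processing notes name GCOS, the Affymetrix operating software, with no version. How signals were summarised and scaled is not given in the sources used here. The 2% trimmed mean was 96.9 on each array, so a common scaling is visible in the values, and no further normalization was applied. Gene names came from the annotation of the array platform: 34958 had 1 symbol, 932 had several and 9211 had none here. All 40 symbols were found in the RefSeq gene table of GRCm38.p6, used for names and gene order.

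Signals under the 40th percentile, 10.7, were raised to that floor before taking log2. The probe set of highest mean signal stood for each gene, which was kept where this mean reached 28.4, the 60th percentile. The log2 ratio is that of diosgenin over control. With 1 array per diet there is no p-value or error for any ratio, and the number of arrays limits the precision. Every member gene is given, and of each other pathway list the genes past 1.5-fold or up to 4 with the largest ratios. Ggcx, Vkorc1, Lman1, Hnf4a, Cebpa, Saa1, Serpinc1 and the C1q genes were named for their role, after their values were seen. Members, lists and thresholds were chosen with earlier results of these data known. Alternatives varied the floor, filter, probe set, scaling and fold. The procedure was tested on simulated data, with Python 3.11.15, numpy 2.4.6 and pandas 2.3.3.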

Additional observations from a re-analysis of the deposited data

How the results depend on the processing

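The 2 other floors and 2 other filters could not alter a gene's ratio, since 0 of the 36 genes had a signal under the floor and a filter only adds or drops genes, so they say nothing about stability. The 3 scalings moved single log2 ratios by at most 0.09 (Fgg) and the 2 other rules for the probe set by at most 0.24 (Cfp). These rules moved 8 genes only, and most genes, among them F7, Hc, Pros1 and F8, had 1 probe set and could move under the scalings alone. No gene was past 1.5-fold under any of these 5, and with a threshold of 25% higher or 20% lower in place of 1.5-fold 2 genes (F7 and Hc) were higher and 0 lower. The median log2 ratio of the set ranged from 0.0053 to 0.02, over 32 to 37 genes. Under the scalings F7 reached 0.44 to 0.45, Hc 0.45 to 0.47 and F8 -0.31 to -0.29. The signs of Fga, Fgb, F10, Proz and Vtn depended on the setting. Cfp was at 0.48 by the median of its 2 probe sets, above Hc, since its dimmer probe set then counts equally. No paired analysis was possible because each diet had 1 array. What limits every value is the single array per diet and, for F3, F8, Tfpi and Cfp, the low signal.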
